A study of Homo sapiens with 16 samples.

Results

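The enzymes described here neutralise electrophiles, peroxides and reactive aldehydes. They were 51 genes chosen by name and known role, with earlier results of these data known, as glutathione transferases (GST and MGST genes), glutathione peroxidases (GPX genes) and glutathione reductase (GSR), aldehyde dehydrogenases (ALDH genes), aldo-keto reductases (AKR genes) and a group of carbonyl reductases, EPHX1, UGDH and CYP1 enzymes. Of the 51, 49 were found by symbol among the 39007 genes of the deposited table, and 2 (GSTA1 and GSTT1) were not analysed here. The 16 RNA-seq libraries came from T24, an established human bladder cancer cell line, and from GRC1, a line that was selected from T24 in steps with the nucleoside analogue gemcitabine. There were 4 libraries for each of P0 (parental T24, not selected), P3 (GRC1 early in selection), P7 (midway) and P15 (late). Every library title carries the letters NT, which the labels do not explain, and whether gemcitabine was present at harvest is not stated. GRC1 is 1 of several lines derived in this way, and no other was sequenced here. The labels do not state that the 4 libraries of a phase came from separate cultures, so each p-value measures the spread between these libraries, which may be technical.

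Values are log2(CPM + 1) throughout, where CPM is the count scaled to the total of the library, and a fold change is a difference on this scale, which understates the change of genes at a few CPM or less. Estimated totals were 33.8 to 50 M counts per library, and 1 count was worth 0.02 to 0.0296 CPM. The summed level of 17 epithelial and urothelial marker genes was 2120 to 2190 CPM in the P0 libraries, 2370 to 2510 at P3, 1690 to 1840 at P7 and 690 to 770 at P15. Among these markers KRT7, KRT8, KRT19, EPCAM and GATA3 fell by P15, to 3.64, 6.16, 0.02, 0.86 and 1.28 on the log2 scale. KRT17 was at 0.23 at P0, 1.67 at P3, 0.16 at P7 and 4.02 at P15, and its mean over all libraries exceeded 1 CPM through P15 alone. KRT18 rose from 8.88 at P0 to 9.31 at P15. UPK1A went the other way, from 0.10 at P0 to 0.34 at P3, 0.67 at P7 and 1.57 at P15. UPK2 was at 0.87, 0.62, 0.62 and 0.67 in this order, and neither was tested. A further 8 of the 17, CDH1 and TP63 among them, stayed below 1 CPM in every library. Summed levels of 5 leukocyte markers reached at most 8.5 CPM, of 4 endothelial markers at most 7.95 CPM and of 5 fibroblast markers at most 26.4 CPM. The part of these shifts in the results below was not tested. In bulk RNA, fewer cells that express a gene and less RNA per cell cannot be told apart.

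Glutathione is a tripeptide whose thiol group is joined to electrophiles by glutathione transferases, which makes them soluble and ready for export. Glutathione peroxidases use it to reduce peroxides, and glutathione reductase restores it with NADPH. Aldehydes that escape conjugation are oxidised to acids by aldehyde dehydrogenases or reduced to alcohols by aldo-keto and carbonyl reductases, and several of these families also serve amino acid, folate and lipid metabolism. In cancer cells these enzymes are known for acting on drugs and on the products of lipid oxidation.

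Most of the tested enzymes were lower at P3 than at P0 and partly higher again at P7. They moved apart at P15, where a few genes fell to near 0 while others reached their highest level. More of all tested genes changed at P15 too, as the shares below show. The filter of a mean above 1 CPM left 37 enzymes for the test and 13249 genes in all. A gene rose or fell where the adjusted p from limma (Benjamini-Hochberg over all tested genes) was below 0.05, and it was differentially expressed where the change was also at least 2-fold. Between P3 and P0, 3 enzymes rose and 29 fell, against 31.4% and 37.3% of all tested genes, and 0 were differentially higher and 2 lower, against 1.95% and 2.51%. The 0 stayed 0 at an unadjusted p below 0.05. Among the 29 that fell is CYP1B1, which passed the filter only with the P0 libraries included. The median fold change of the 37 enzymes was -0.35, and that of all tested genes was -0.02.

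Between P7 and P3, 24 enzymes rose and 0 fell, while 30.3% of all tested genes rose and 28.0% fell. At an unadjusted p below 0.05 from limma, 0 enzymes were lower too. A single enzyme was differentially higher and 0 were lower (0.989% and 0.845% of all tested genes). Median fold changes were 0.22 for the enzymes and 0.01 for all tested genes. This comparison shares the P3 libraries with the one before it, so the level at P3 enters both.

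The step from P7 to P15 was wider, for the enzymes as for all tested genes. In it 13 enzymes rose and 21 fell (46.3% and 40.1% of all tested genes). Of these enzymes, 5 were differentially higher and 9 lower (13.4% and 12.1% of all tested genes). Over the whole course, from P0 to P15, 10 enzymes rose, 26 fell and CYP1B1 alone did not pass, while 45.3% of all tested genes rose and 40.9% fell. Differentially expressed were 6 higher and 8 lower enzymes, against 12.1% and 11.4% of all tested genes. ALDH1L2, which passed the filter through P15 alone, is among these 6 and among the 5 higher between P15 and P7. The medians of the enzymes were -0.24 and -0.26, and those of all tested genes 0.06 and 0.04. By phase mean, 16 of the 37 enzymes were highest at P0, 1 at P3, 10 at P7 and 10 at P15. Lowest were 17 at P3 and 19 at P15. The same counts were not made over all tested genes, so nothing particular to the enzymes is read from them.

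**Figure D1:**
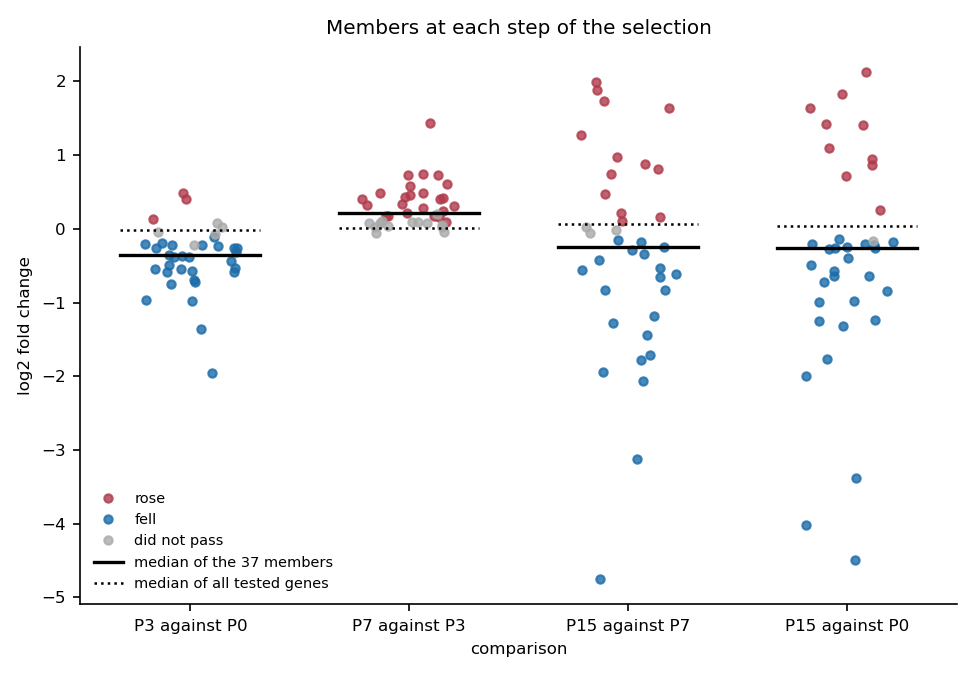
Log2 fold change (vertical axis) of the 37 tested enzymes in 4 comparisons (horizontal axis), 1 point per gene, with the medians of these enzymes (solid) and of all 13249 tested genes (dotted). The enzymes lie mostly below 0 for P3 against P0, almost all above 0 for P7 against P3, and spread from -4.49 to 2.12 for P15 against P0.

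GSTM1 and MGST2 showed the largest falls. GSTM1, a mu-class transferase that conjugates epoxides of polycyclic hydrocarbons, was at 3.97, 4.08, 4.13 and 4.04 in the P0 libraries, at 3.00, 2.96, 3.29 and 3.03 at P3, at 2.95, 3.16, 3.47 and 3.07 at P7, and at 0.00, 0.07, 0.08 and 0.00 at P15. The P3 and P7 libraries overlapped, and every P15 library lay at or next to 0, which on the linear scale is a mean of 15.6 CPM at P0 and 0.0267 CPM at P15. The fold change was -0.98 between P3 and P0 (standard error 0.09, adjusted p = 2.5e-09) and -4.02 between P15 and P0 (standard error 0.09, adjusted p = 5.8e-22). Its size depends on the constant added before the log, since it was -6.99 with 0.1 and -2.04 with 5 in place of 1. GSTM1 lies on chromosome 1 of GRCh38, from 109687814 to 109709039 on the plus strand. It overlaps GSTM2 on the same strand, and 28.3% of its 100-base stretches also occur in transcripts of GSTM2, so that reads from this pair may have been split or discarded, and GSTM2 itself stayed between 0.17 and 0.51 in all 16 libraries.

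The other mu-class genes did not share this course. GSTM3 fell from 4.75 ± 0.08 (SD, n = 4 libraries) at P0 to 4.03 ± 0.02 at P15, a fold change of -0.71 (standard error 0.06, adjusted p = 2.1e-11). GSTM4, which lies on the same strand upstream of GSTM1, rose from 3.76 ± 0.04 to 4.70 ± 0.08, a fold change of 0.94 (standard error 0.07, adjusted p = 4.5e-12). No P15 library of GSTM3 or GSTM4 overlapped with P0.

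GSTA4, an alpha-class transferase with high activity towards 4-hydroxynonenal, a product of lipid oxidation, was at 0.88, 1.21, 0.55 and 1.04 at P0, at 0.64, 0.78, 0.66 and 0.56 at P3, at 1.18, 1.51, 1.45 and 1.47 at P7, and at 3.13, 3.01, 3.00 and 3.03 at P15. P15 stood above all other libraries, P0 and P3 overlapped, and 1 P0 library reached into the range of P7. The fold changes were 0.74 between P7 and P3 (standard error 0.11, adjusted p = 5.6e-06) and 2.12 between P15 and P0 (standard error 0.11, adjusted p = 8.1e-15). GSTZ1, the maleylacetoacetate isomerase of tyrosine breakdown, was at 3.26, 3.24, 3.31 and 3.12 at P0, at 2.92, 2.83, 2.78 and 2.90 at P3, at 2.92, 2.92, 2.97 and 2.83 at P7, and at 4.58, 4.68, 4.64 and 4.65 at P15. The P15 libraries lay together above the rest, with a fold change of 1.40 against P0 (standard error 0.06, adjusted p = 2.2e-16).

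Among the abundant transferases the changes were smaller. GSTP1, the pi-class enzyme, fell from 8.72 ± 0.05 at P0 to 8.22 ± 0.05 at P15, a fold change of -0.49 (standard error 0.03, adjusted p = 1e-12). It held 64.0% ± 1.1 (SD, n = 4 libraries) of the CPM per kb of the 8 tested cytosolic and mitochondrial transferases at P0 and 58.0% ± 1.7 at P15, with lengths taken from the MANE Select transcripts. GSTO1, an omega-class enzyme with thioltransferase activity, was the only 1 of the 8 that rose at P3, by 0.48 (standard error 0.05, adjusted p = 1.3e-08), and it fell by 0.83 between P7 and P15 (standard error 0.05, adjusted p = 1.2e-13). GSTK1, found in mitochondria and peroxisomes, had the smallest difference between P15 and P0, -0.13 (standard error 0.04, adjusted p = 0.0022).

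The promoters of transferases with opposite courses are shown because they share the core of the antioxidant response element, the sequence bound by NFE2L2 (NRF2) with small MAF proteins. RefSeq promoters on GRCh38.p14, from 250 bases before to 50 bases after the start, were found for 39 of the 49 enzymes. The letters TGACNNNGC, on either strand, occurred in 7 of the 39 (17.9%), those of CBR1, GPX2, GSTA4, GSTM1, GSTM5, GSTO1 and GSTP1, and in 13.6% of all 27305 promoters of this length. The letters TNGCGTG, the core bound by the aryl hydrocarbon receptor, occurred in that of GSTM5 alone (2.6%) and in 5.5% of all promoters. A match is only a match of letters and was not tested for binding. The 250 bases before the start read as follows, 5′ to 3′ on the strand of the gene, with TGACNNNGC in capitals: chr1:109687567-109687816 (plus strand) for GSTM1, which fell, chr6:52995285-52995534 (minus) for GSTA4, which rose, chr11:67583562-67583811 (plus) for GSTP1, the most abundant per kb, and chr10:104254642-104254891 (plus) for GSTO1, which rose first and fell later and holds 2 matches.
GSTM1: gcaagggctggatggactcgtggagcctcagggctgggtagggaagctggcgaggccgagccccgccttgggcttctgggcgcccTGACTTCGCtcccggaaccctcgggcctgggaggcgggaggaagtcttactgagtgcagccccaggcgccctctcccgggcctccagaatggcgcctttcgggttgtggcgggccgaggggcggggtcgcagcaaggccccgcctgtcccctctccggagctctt
GSTA4: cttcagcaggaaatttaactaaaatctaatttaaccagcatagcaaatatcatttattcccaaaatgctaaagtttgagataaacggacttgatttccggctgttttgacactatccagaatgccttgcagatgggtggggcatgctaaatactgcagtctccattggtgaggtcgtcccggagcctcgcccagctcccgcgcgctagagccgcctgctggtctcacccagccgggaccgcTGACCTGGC
GSTP1: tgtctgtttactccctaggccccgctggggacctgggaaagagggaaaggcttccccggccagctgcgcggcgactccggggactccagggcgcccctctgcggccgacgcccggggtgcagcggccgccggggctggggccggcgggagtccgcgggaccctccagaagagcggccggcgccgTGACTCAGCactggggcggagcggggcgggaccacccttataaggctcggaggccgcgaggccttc
GSTO1: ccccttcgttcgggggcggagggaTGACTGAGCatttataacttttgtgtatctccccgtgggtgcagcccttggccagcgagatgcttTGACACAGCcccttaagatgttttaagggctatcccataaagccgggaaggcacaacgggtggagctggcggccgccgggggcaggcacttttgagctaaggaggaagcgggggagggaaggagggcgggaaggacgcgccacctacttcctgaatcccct
From the start, the first base of the match stands at -165 in GSTM1, at -9 in GSTA4, at -66 in GSTP1 and at -226 and -161 in GSTO1.

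Of the 3 membrane-bound transferases, MGST2 and MGST1 fell and MGST3 rose. MGST2, a microsomal enzyme that can also form leukotriene C4, was at 4.90, 4.90, 5.02 and 4.85 at P0, at 4.71, 4.65, 4.79 and 4.72 at P3, at 5.09, 5.29, 5.14 and 5.18 at P7, and at 0.49, 0.51, 0.47 and 0.24 at P15. The libraries of the first 3 phases lay close to each other, and those of P15 fell to below 1 CPM, a mean of 0.349 CPM against 35.2 CPM at P7. The fold change between P15 and P7 was -4.75 (standard error 0.07, adjusted p = 1.7e-26), and it was -6.34 with 0.1 and -2.91 with 5 as the added constant. MGST2 lies on chromosome 4, from 139665768 to 139740745 on the plus strand, and overlaps MAML3 on the minus strand, so reads in the overlap cannot be assigned without strand.

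MGST1, an abundant microsomal enzyme that also reduces lipid peroxides, was at 7.10, 7.19, 7.01 and 7.05 at P0, at 6.40, 6.36, 6.36 and 6.36 at P3, at 6.92, 7.01, 6.94 and 6.93 at P7, and at 5.88, 5.74, 5.65 and 5.81 at P15. It dipped at P3, stood close to the parental level at P7 and was lowest at P15, with a fold change of -1.32 against P0 (standard error 0.04, adjusted p = 4.7e-19). MGST3 rose from 5.92 ± 0.09 at P0 to 6.18 ± 0.09 at P15 (fold change 0.26, standard error 0.05, adjusted p = 5.2e-05). In CPM per kb, MGST2 made up 16.7% ± 1.2 of the 3 enzymes at P0 and 0.4% ± 0.1 at P15, MGST1 61.6% ± 1.1 and 48.1% ± 0.4, and MGST3 21.8% ± 0.5 and 51.5% ± 0.2.

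**Figure D2:**
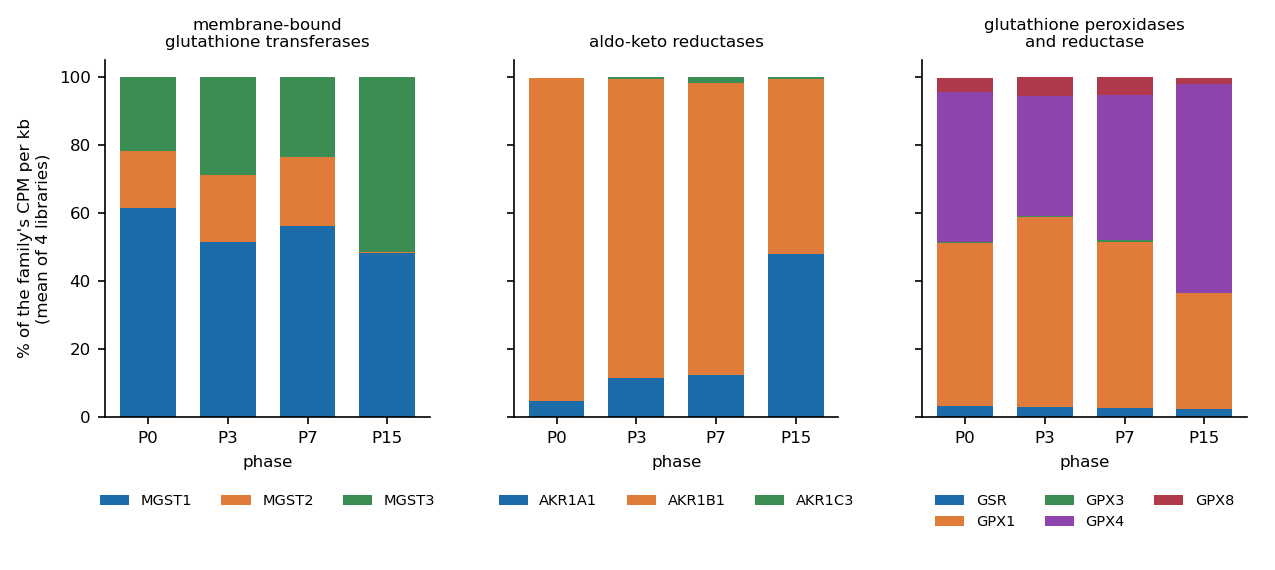
Share of the summed CPM per kb of MANE Select transcript (vertical axis, %, mean of 4 libraries) held by each tested gene of 3 families at phases P0, P3, P7 and P15 (horizontal axis). MGST3 goes from 21.8% to 51.5% of the membrane-bound transferases, AKR1A1 from 4.6% to 48.0% of the aldo-keto reductases and GPX4 from 44.2% to 61.7% of the peroxidases and reductase. Shares are of the tested genes of the 51 alone.

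Glutathione peroxidases split in the same period. GPX3, the secreted peroxidase of plasma, was at 2.52, 2.54, 2.68 and 2.67 at P0, at 2.18, 2.33, 2.24 and 2.39 at P3, at 2.35, 2.29, 2.43 and 2.47 at P7, and at 0.44, 0.64, 0.76 and 0.57 at P15. All P15 libraries were below 1 CPM and under every other library, with a fold change of -2.0 against P0 (standard error 0.09, adjusted p = 1e-16). GPX8, a peroxidase of the endoplasmic reticulum, was at 6.78, 6.87, 6.88 and 6.81 at P0, at 6.95, 6.98, 6.97 and 6.95 at P3, at 7.10, 7.22, 7.06 and 7.12 at P7, and at 5.95, 5.71, 5.86 and 5.85 at P15. It stood a little higher at P3 and P7 than at P0 and then dropped in all P15 libraries, by 1.28 against P7 (standard error 0.04, adjusted p = 4.7e-19) and by 0.99 against P0 (standard error 0.04, adjusted p = 9.6e-17).

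GPX4, which reduces lipid hydroperoxides within membranes, was the only tested peroxidase that was higher at P15 than at P0. It went from 8.10 ± 0.10 at P0 to 7.52 ± 0.09 at P3, 8.01 ± 0.07 at P7 and 8.82 ± 0.06 at P15, and the fold change between P15 and P0 was 0.72 (standard error 0.05, adjusted p = 5.7e-13). GPX1, the cytosolic peroxidase, did not pass the test at P3 or P7 and was lower at P15 than at P0 (fold change -0.24, standard error 0.04, adjusted p = 8.9e-06). GSR, on chromosome 8, fell by 0.35 at P3 and was still lower at P15 than at P0 (fold change -0.21, standard error 0.05, adjusted p = 0.00036). Per kb, GPX1 and GPX4 together made up most of these transcripts, with 47.9% ± 0.6 and 44.2% ± 0.9 at P0 and 34.1% ± 0.6 and 61.7% ± 0.6 at P15.

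**Figure D3:**
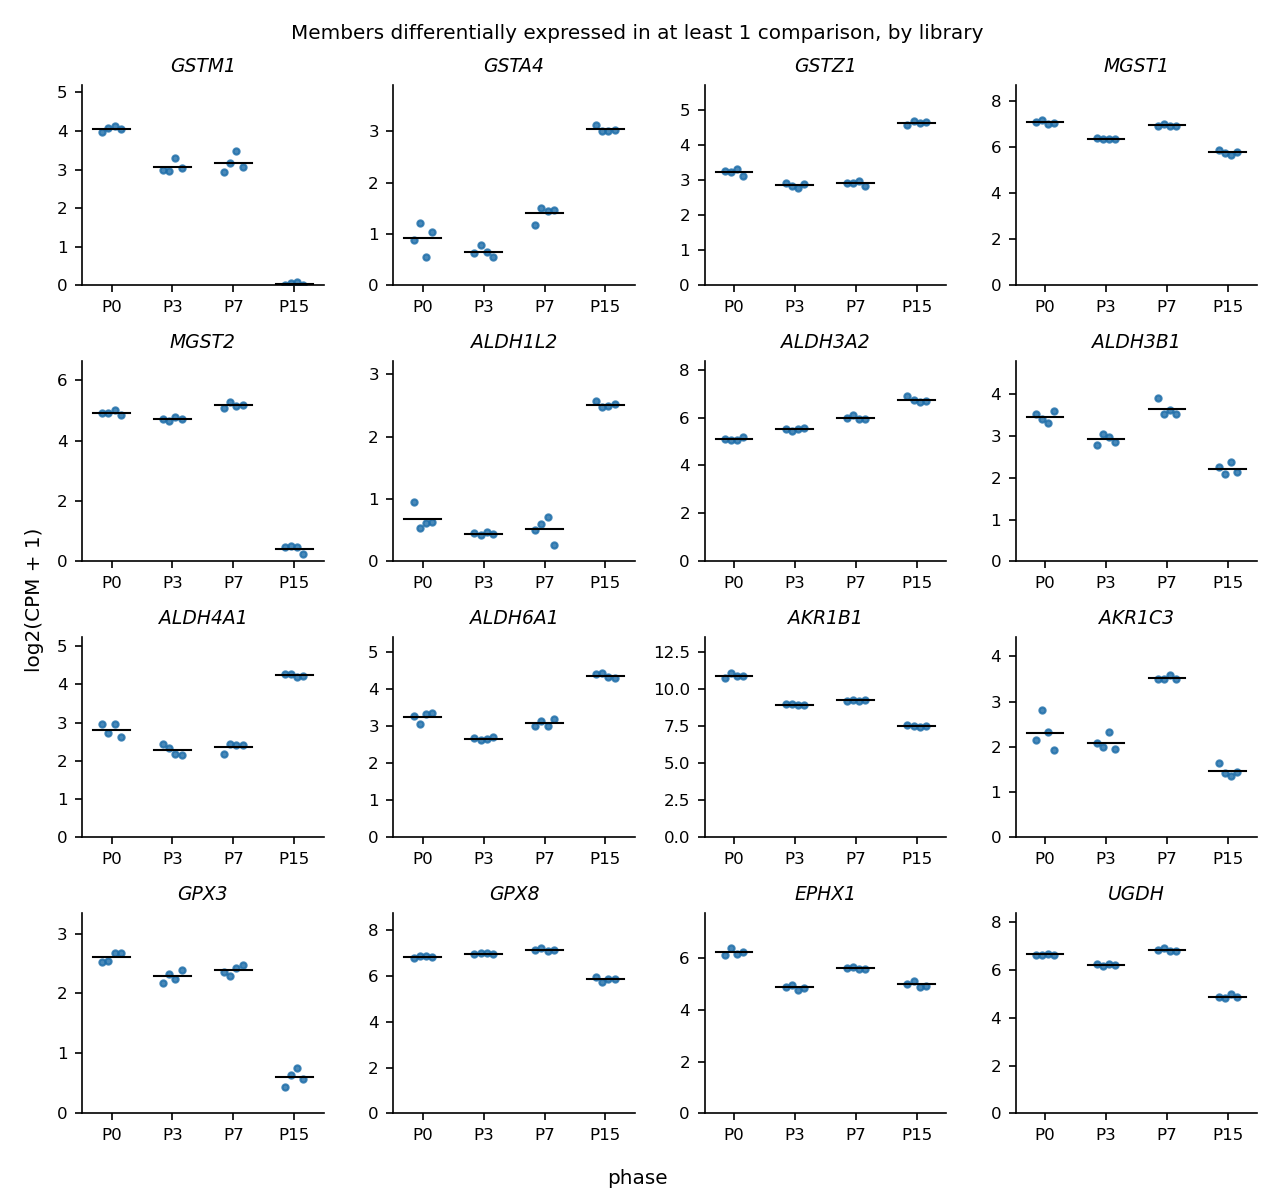
Log2(CPM + 1) (vertical axes, each from 0) of the 16 enzymes that were differentially expressed in at least 1 comparison, by phase (horizontal axes), with 1 point per library and a line at the mean of the 4 libraries. GSTM1, MGST2 and GPX3 drop to below 1 at P15, GSTA4, GSTZ1 and several aldehyde dehydrogenases rise there, and AKR1C3 peaks at P7.

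All 13 tested aldehyde dehydrogenases of the 51 changed between P3 and P0, 12 down and 1 up, although the fall of ALDH1L2 was lost in 17 of 26 alternative settings. Of all tested genes, 37.3% fell and 31.4% rose in this comparison. Between P15 and P0, 9 fell and 4 rose, and the 4 that rose were all differentially expressed. Of all tested genes 40.9% fell, 45.3% rose and 12.1% were differentially higher. The 4 include ALDH1L2, which passed the filter through P15 alone. ALDH3A2, the fatty aldehyde dehydrogenase of the endoplasmic reticulum, was the 1 that rose at P3. It was at 5.12, 5.06, 5.08 and 5.17 at P0, at 5.51, 5.43, 5.54 and 5.57 at P3, at 5.99, 6.11, 5.94 and 5.93 at P7, and at 6.89, 6.74, 6.63 and 6.70 at P15. The 4 phases did not overlap and followed the order of selection, with a fold change of 1.63 between P15 and P0 (standard error 0.05, adjusted p = 1.3e-19). The gene lies on chromosome 17, from 19648136 to 19685760 on the plus strand.

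The other 3 that rose are mitochondrial. ALDH1L2, which oxidises 10-formyltetrahydrofolate, was at 0.96, 0.53, 0.61 and 0.64 at P0, at 0.45, 0.43, 0.47 and 0.44 at P3, at 0.51, 0.60, 0.71 and 0.27 at P7, and at 2.57, 2.47, 2.49 and 2.53 at P15. It was below 1 CPM in every library before P15 and passed the filter through P15 alone, with a fold change of 1.83 between P15 and P0 (standard error 0.10, adjusted p = 3.1e-14). ALDH4A1, the proline-degrading pyrroline-5-carboxylate dehydrogenase, was at 2.96, 2.72, 2.97 and 2.63 at P0, at 2.44, 2.33, 2.18 and 2.15 at P3, at 2.17, 2.43, 2.42 and 2.42 at P7, and at 4.26, 4.27, 4.19 and 4.23 at P15. Its P15 libraries lay well above the rest (fold change 1.42 against P0, standard error 0.09, adjusted p = 1.7e-13).

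ALDH6A1, the methylmalonate semialdehyde dehydrogenase of valine breakdown, was at 3.26, 3.06, 3.33 and 3.35 at P0, at 2.69, 2.62, 2.64 and 2.70 at P3, at 2.99, 3.14, 2.99 and 3.18 at P7, and at 4.39, 4.42, 4.31 and 4.29 at P15. P7 overlapped with P0, P3 lay below both and P15 above both. The fold change between P15 and P0 was 1.10 (standard error 0.07, adjusted p = 4.2e-13).

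ALDH3B1, which acts on aldehydes from lipid oxidation, was at 3.53, 3.40, 3.32 and 3.59 at P0, at 2.78, 3.05, 2.98 and 2.85 at P3, at 3.91, 3.53, 3.63 and 3.52 at P7, and at 2.26, 2.08, 2.37 and 2.14 at P15. It was lower at P3, at P7 overlapped with the parental libraries and lowest at P15. Among the tested aldehyde dehydrogenases of the 51 it was the only 1 that was differentially lower. The fold change was -1.25 between P15 and P0 (standard error 0.09, adjusted p = 5.4e-12). ALDH7A1, the lysine-degrading antiquitin, came next at -0.98 (standard error 0.04, adjusted p = 2.5e-18), just under the 2-fold limit.

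The remaining 7 tested aldehyde dehydrogenases (ALDH1B1, ALDH1L1, ALDH2, ALDH5A1, ALDH9A1, ALDH16A1 and ALDH18A1) fell between P0 and P15 by 0.18 to 0.65. ALDH1B1, a mitochondrial acetaldehyde dehydrogenase, was at 6.18 ± 0.03 at P0, and its later phases were close to each other at 5.49 ± 0.03, 5.50 ± 0.07 and 5.53 ± 0.08. ALDH9A1, which oxidises aminoaldehydes, was the least changed at P15, from 6.66 ± 0.01 to 6.48 ± 0.05. Among these 13 genes, ALDH18A1, the pyrroline-5-carboxylate synthase that makes proline, and ALDH9A1 had the highest CPM per kb at P0 (49.8 ± 1.67 and 41.8 ± 0.412), while ALDH3A2 went from 9.04 ± 0.315 to 28.7 ± 2.24 CPM per kb and its share of the 13 from 5.6% to 19.0%. ALDH1A3, a retinaldehyde dehydrogenase outside the 51, is not in these shares. It was at 8.34 ± 0.01 at P0, 6.69 ± 0.04 at P3, 7.35 ± 0.09 at P7 and 8.76 ± 0.06 at P15 on the log2 scale. ALDH1A3 was differentially lower at P3 than at P0 (fold change -1.65, adjusted p = 7.2e-21 from limma). Between P15 and P0 its fold change was 0.41 (adjusted p = 3.8e-10 from limma).

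The largest loss in level was that of AKR1B1, aldose reductase, which reduces glucose to sorbitol and also clears lipid aldehydes. It was at 10.74, 11.10, 10.89 and 10.88 at P0, at 8.97, 9.0, 8.89 and 8.93 at P3, at 9.19, 9.29, 9.21 and 9.24 at P7, and at 7.60, 7.49, 7.45 and 7.53 at P15. No phase overlapped with another, and the mean went from 1920 to 182 CPM. The fold changes were -1.96 between P3 and P0 (standard error 0.05, adjusted p = 4.5e-20), 0.28 between P7 and P3 (standard error 0.05, adjusted p = 3.6e-05), -1.72 between P15 and P7 (standard error 0.05, adjusted p = 3.8e-20) and -3.38 between P15 and P0 (standard error 0.05, adjusted p = 4.8e-26). AKR1B1 lies on chromosome 7, from 134442356 to 134459284 on the minus strand.

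AKR1A1, aldehyde reductase, moved the other way at P15. It was at 6.60 ± 0.07 at P0, 6.08 ± 0.03 at P3, 6.48 ± 0.03 at P7 and 7.46 ± 0.03 at P15, and rose by 0.86 between P0 and P15 (standard error 0.03, adjusted p = 2.5e-17), less than 2-fold. Per kb, AKR1B1 made up 95.1% ± 0.2 of the 3 tested aldo-keto reductases of the 51 at P0, 86.0% ± 0.5 at P7 and 51.4% ± 0.6 at P15. AKR1A1 held 4.6% ± 0.3, 12.3% ± 0.4 and 48.0% ± 0.7. AKR7A2, an aldo-keto reductase outside the 51, is not in these shares. It was at 5.69 ± 0.05 at P0, 5.60 ± 0.05 at P3, 5.85 ± 0.11 at P7 and 5.61 ± 0.05 at P15 on the log2 scale.

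AKR1C3, which forms prostaglandin F and reduces steroids, was at 2.15, 2.82, 2.33 and 1.94 at P0, at 2.08, 2.00, 2.34 and 1.96 at P3, at 3.50, 3.51, 3.59 and 3.50 at P7, and at 1.64, 1.42, 1.36 and 1.45 at P15. P0 and P3 overlapped, all P7 libraries lay above the others and all P15 libraries below. It was the only enzyme that was differentially expressed between P7 and P3, with a fold change of 1.43 (standard error 0.13, adjusted p = 1.5e-09), and it fell between P7 and P15 (fold change -2.06, standard error 0.13, adjusted p = 1.6e-13). With 5 as the added constant the rise was 0.91 and no longer 2-fold.

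EPHX1, the microsomal epoxide hydrolase, and UGDH, which makes the UDP-glucuronic acid used for glucuronidation, were differentially lower at P15. EPHX1 was at 6.13, 6.38, 6.15 and 6.23 at P0, at 4.87, 4.96, 4.78 and 4.83 at P3, at 5.60, 5.63, 5.56 and 5.59 at P7, and at 5.01, 5.09, 4.89 and 4.93 at P15. P3 and P15 were both low and overlapped, with P7 between them and P0. The fold changes against P0 were -1.36 at P3 (standard error 0.05, adjusted p = 1.5e-16) and -1.24 at P15 (standard error 0.05, adjusted p = 1.2e-16).

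UGDH was at 6.65, 6.65, 6.69 and 6.65 at P0, at 6.24, 6.19, 6.25 and 6.23 at P3, at 6.83, 6.91, 6.82 and 6.79 at P7, and at 4.88, 4.83, 4.99 and 4.86 at P15. It stood slightly above the parental libraries at P7 and far below all others at P15, with a fold change of -1.95 between P15 and P7 (standard error 0.04, adjusted p = 7.3e-24). The gene lies on chromosome 4, from 39498755 to 39528311 on the minus strand, and overlaps the antisense gene UGDH-AS1.

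CBR1 and CBR3, carbonyl reductases of quinones and other ketones, fell by 0.20 and by 0.40 between P0 and P15. CYP1B1, a cytochrome P450 that oxidises polycyclic hydrocarbons and oestrogens, was at 1.41 ± 0.30 at P0, 0.43 ± 0.09 at P3, 0.78 ± 0.15 at P7 and 1.24 ± 0.06 at P15. It fell at P3 by 0.97 (standard error 0.12, adjusted p = 1.5e-07), and P15 was not told apart from P0 (fold change -0.16, standard error 0.12, adjusted p = 0.21). Its mean over all libraries was 1.035 CPM. CYP1B1 passed the filter only with P0 included, where it was highest, so the fall from P0 is not independent of the filter.

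**Figure D4:**
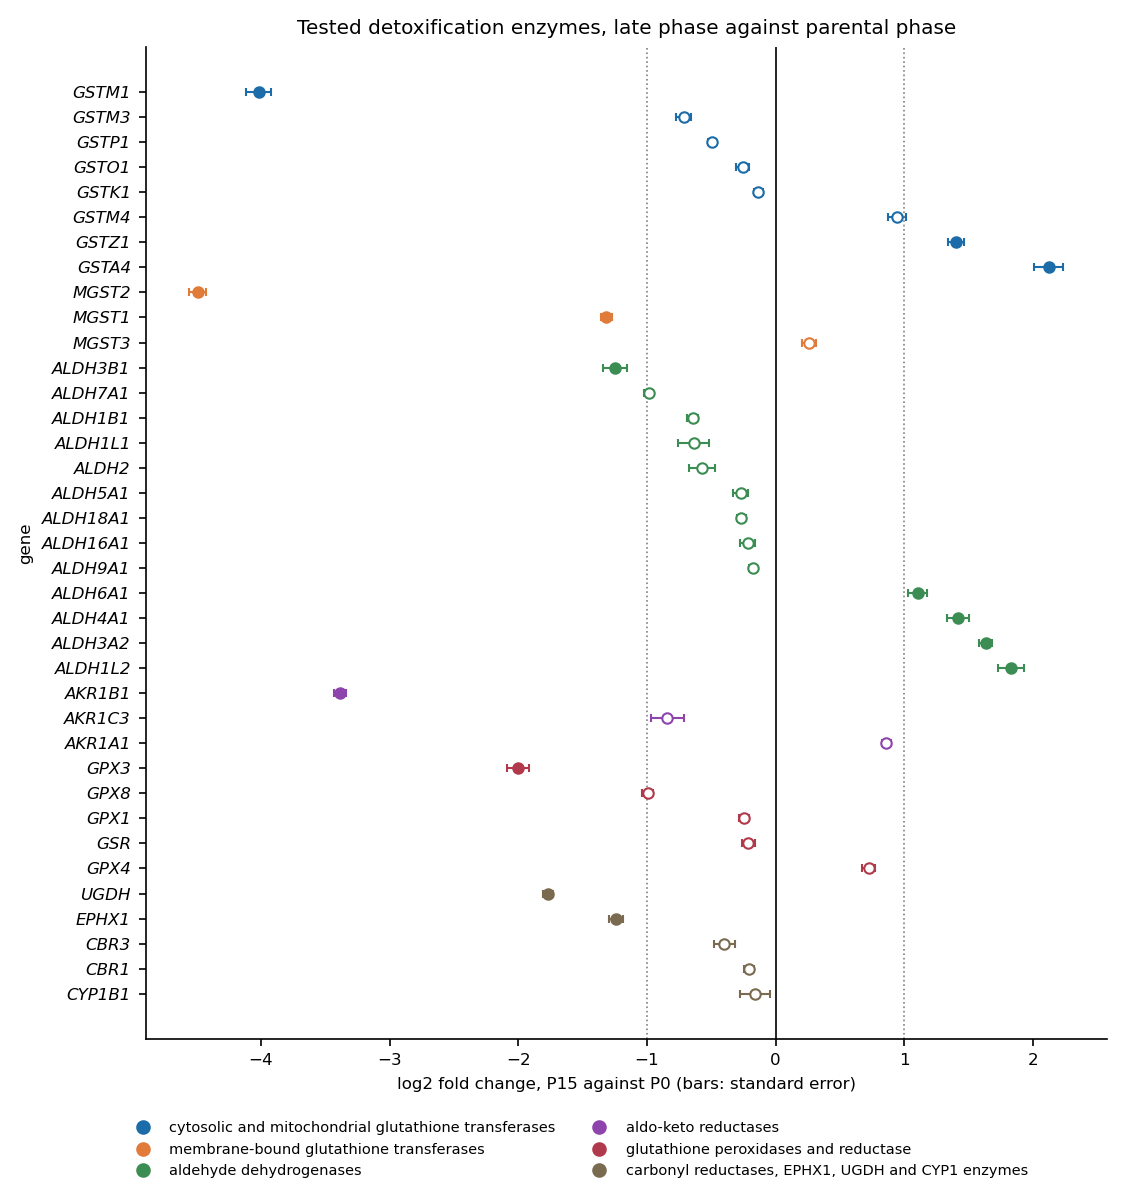
Log2 fold change between P15 and P0 (horizontal axis) of each of the 37 tested enzymes (vertical axis), coloured by family, with standard errors from limma as bars. Filled points are differentially expressed, 6 to the right of the dotted line at 1 and 8 to the left of that at -1, and in the group of carbonyl reductases, EPHX1, UGDH and CYP1 enzymes alone no gene rose.

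A total of 12 enzymes lay below the filter and were not tested. The 4 transferases were GSTM2 (0.17 to 0.51 over the 16 libraries), GSTM5 (0.00 to 0.15, listed at 0 in 12 libraries), GSTT2 (0.55 to 1.72) and GSTO2 (0.41 to 1.68). The aldehyde dehydrogenases among them were ALDH1A1 (0.00 to 0.64), ALDH1A2 (0.00 to 0.32) and ALDH3A1 (0.00 to 0.09), the first and the last of which are known as stem cell and corneal enzymes. AKR1B10 did not exceed 0.08, AKR1C1 lay at 0.26 to 1.08, AKR1C2 at 0.00 to 0.49, GPX2 at 0.04 to 0.31 and CYP1A1 at 0.00 to 0.86. Values of GSTT2, AKR1C1 and AKR1C2 are uncertain, since 73.6% of the 100-base stretches of GSTT2 also occur in GSTT2B, 13.4% of those of AKR1C1 in AKR1C2 and 19.1% of those of AKR1C2 in AKR1C1.

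Genes that supply, use or regulate glutathione and that are not among the 51 were counted for the comparison of P15 with P0. In glutathione synthesis and cystine supply, 8 of 11 tested genes rose and 1 fell, with a median of 0.37. SLC7A11, the cystine importer, went from 6.04 ± 0.08 to 7.09 ± 0.17 (fold change 1.05, adjusted p = 2.2e-14), GGT7 rose by 1.33 (adjusted p = 2.2e-14), and of the glutathione-degrading pair CHAC1 rose from 4.93 ± 0.09 to 5.63 ± 0.01 (adjusted p = 9.3e-11) and CHAC2 fell by 0.30 (adjusted p = 0.0018). Among 12 genes of NADPH supply, 5 rose and 3 fell (median 0.10). MTHFD2 (1.28), a mitochondrial folate enzyme, and ME3 (1.27), a malic enzyme, rose most, and TALDO1 (-1.14), the transaldolase, fell most.

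Thioredoxins, peroxiredoxins and glutaredoxins were divided, with 7 of 16 up and 7 down (median -0.01). SRXN1 (1.46) and TXNRD1 (1.09), the thioredoxin reductase of the cytosol, rose most, and GLRX2 (-1.17) and PRDX3 (-0.97), both mitochondrial, fell most. Of 8 tested exporters of glutathione conjugates and drugs, 6 rose and 1 fell (median 0.33). ABCC5 (0.66) and ABCC2 (0.56) rose most, and ABCG2 fell by 0.70. All 5 tested glyoxalase genes, which clear methylglyoxal and its product lactate, rose, HAGHL by 0.75 and GLO1 by 0.63. The 5 include LDHD, which was at 0.08, 0.15 and 0.02 by phase mean before P15 and at 2.65 at P15, and which passed the filter through P15 alone.

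Among 11 sensors and regulators, 8 rose and 3 fell, with a median of 0.54. NFE2L2, the transcription factor that binds antioxidant response elements, went from 6.39 ± 0.05 to 7.65 ± 0.03 (fold change 1.26, adjusted p = 6.2e-21). BACH1, which competes for the same sites, rose by 1.04, KEAP1, which marks NFE2L2 for degradation, fell by 0.52, and AHRR, the repressor of the aryl hydrocarbon receptor, fell by 0.72. Of 10 other tested members of the enzyme families, 5 rose and 4 fell (median 0.08), NQO2 by 0.74, while EPHX4 fell by 1.16 and NQO1, a quinone reductase, by 0.89. The 5 include EPHX2, the soluble epoxide hydrolase, which was at 0.29, 0.06 and 0.02 by phase mean before P15 and at 2.99 at P15, and which also passed the filter through P15 alone. These counts stand beside 45.3% of all tested genes that rose and 40.9% that fell, and nothing particular to a list is read from them.

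**Figure D5:**
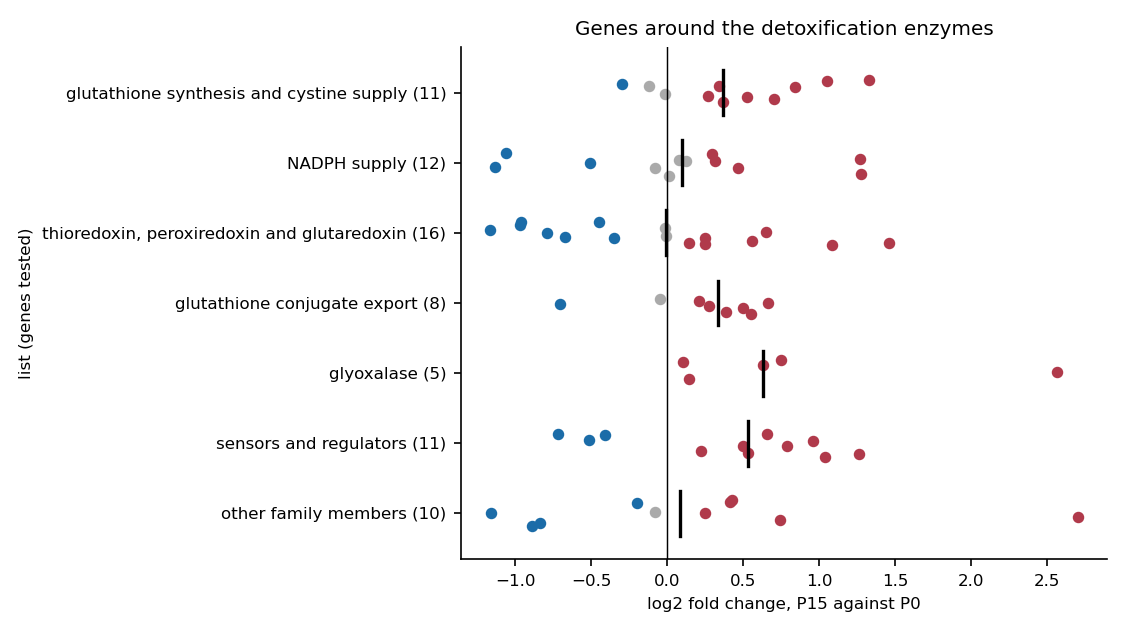
Log2 fold change between P15 and P0 (horizontal axis) of tested genes in 7 lists around the enzymes (vertical axis, number tested in brackets), with genes that rose in red, fell in blue or did not pass in grey, and the list's median as a black line. The medians lie between -0.01 for thioredoxins, peroxiredoxins and glutaredoxins and 0.63 for glyoxalase genes, and the points farthest to the right, LDHD and EPHX2, are genes that passed the filter through P15 alone.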

How the data were processed

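RNA of 16 libraries, 4 per phase (P0, P3, P7 and P15), was sequenced. The authors aligned the reads to GRCh38 with STAR 2.6.1a, counted them per gene with featureCounts and deposited log2(CPM + 1) at 2 decimals for 39007 symbols, 27 of them dates. Strandedness and the treatment of multi-mapping reads are not given in the sources used here. A quantile normalization and a centring on medians are also described, but are not seen in the deposited log2 values, where libraries at equal rank differ by up to 1.23. CPM and total counts were recovered from the deposited values, the totals from the steps between the lowest values. No depth other than this estimate was used.

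The test was limma 3.58.1 (R 4.3.3) on all 16 libraries, with a mean for each phase, a variance trend and Benjamini-Hochberg adjustment over 13249 genes with a mean above 1 CPM. The procedure was tested on simulated data. Enzymes and lists were chosen with earlier results of these data known. Values in every library are given for enzymes that were differentially expressed in any comparison, the other tested enzymes are given by counts, ranges and examples, and genes outside the 51 are named by the largest rises and falls of their list. Coordinates, MANE Select lengths and shared 100-base stretches come from GENCODE release 44 on GRCh38, which is not stated to be the annotation the authors counted on. Tables and figures were made in Python 3.11.15 with numpy 2.4.6, pandas 2.3.3 and matplotlib 3.10.9. Alternatives were other filters, pseudocounts, normalizations and replicate blocks, a constant prior variance, fits of only the phases compared, calls by p alone and each library left out in turn. The labels give no run or date. The library titles end in S numbers, some of which recur between phases, but their meaning is not stated. Whether they mark a batch was not tested, so a batch cannot be told apart from the phase.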

Additional observations from a re-analysis of the deposited data

Results flagged for a closer look

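Within a phase, 9 of the 148 sets of 4 libraries (37 enzymes in 4 phases) held a library whose gap to its nearest neighbour took a larger part of the range of the 4 than Dixon's critical value allows, and about 7 such sets are given by chance. The ratio of gap to range was 1.00 for MGST1 at P3 (replicate 1 higher, at 6.40), for MGST3 at P0 (replicate 2 higher, at 6.06), for CBR1 at P7 (replicate 1 higher, at 6.01) and for UGDH at P0 (replicate 3 higher, at 6.69). In these 4 sets the other libraries were tied at the 2 deposited decimals, at 6.36, 5.88, 5.99 and 6.65, so rounding enters the ratio. The number given by chance does not allow for such ties. The ratio was 0.96 for ALDH4A1 at P7 (replicate 1 lower, at 2.17), 0.91 for ALDH5A1 at P15 (replicate 3 lower, at 3.85), 0.89 for AKR1C3 at P7 (replicate 3 higher, at 3.59), 0.87 for ALDH1L1 at P3 (replicate 1 lower, at 0.64) and 0.85 for MGST2 at P15 (replicate 4 lower, at 0.24). No library was marked for more than 2 enzymes. Of these, leaving the library out removed 1 call, that of ALDH5A1 between P15 and P7 (fold change -0.11, adjusted p = 0.083 from limma).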

How the results depend on the processing

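The 31 changes of at least 2-fold kept their direction and an adjusted p below 0.05 in all 827 values of their alternatives, while the number past the 2-fold limit moved with the scale. A pseudocount of 0.1 gave 4 differentially expressed enzymes between P3 and P0 in place of 2 and 2 between P7 and P3 in place of 1. A pseudocount of 5 gave 0 between P7 and P3 and 9 between P15 and P7 in place of 14. Required above 1 CPM in all 16 libraries, 9 were left between P15 and P7 and 9 between P15 and P0 in place of 14, because GSTM1, MGST2, GPX3, GSTA4 and ALDH1L2 were no longer tested. Without a fold threshold there were 32, 24, 34 and 36 in the order of the 4 comparisons. Leaving out 1 library gave 2 to 3 between P3 and P0, 1 to 1 between P7 and P3, 14 to 14 between P15 and P7 and 14 to 16 between P15 and P0, as GSTM1, CYP1B1, GPX8 and ALDH7A1 lie next to the 2-fold limit. Deviations of libraries with the same replicate number had correlations of -0.15 to 0.22 by the descriptions and -0.12 to 0.22 by the titles. By these numberings, 4 and 5 of the 16 libraries correlated best with their own number. No pairing by number was seen in the values, which cannot show whether libraries of the same number were prepared together. A replicate block gave 2, 1, 14 and 14 differentially expressed enzymes by either numbering, and changed none of these calls. Of 126 changes past an adjusted p of 0.05, 10 lost it under some alternative, 49 of 3378 values in all, and none changed direction. These were mainly the falls of GSTA4 (14 of 26 alternatives) and ALDH1L2 (17 of 26) between P3 and P0 and the rise of GSR between P7 and P15 (9 of 27). Between P3 and P7, the rise of ALDH9A1 was lost without P3 replicate 1 (0.08, adjusted p = 0.054 from limma), and that of CYP1B1 in 3 of 26 alternatives, namely without P7 replicate 2 (adjusted p = 0.061), with no filter on low values (0.069) and with a pseudocount of 5 (0.084). Depth limits values next to 0, where 1 count is worth up to 0.0296 CPM.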

Other observations

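For GSTM1 and MGST2, which fell to near 0, the nearest 3 tested genes outside the 51 were looked up after the values of these enzymes were seen, and are given as values with no explanation. MGST2 went from a mean log2 value of 4.92 at P0 to 0.43 at P15. MAML3, which overlaps it on the other strand, went from 3.75 to 3.16 (fold change -0.59, adjusted p = 7.5e-08 from limma), SETD7, 59069 bases away, from 6.86 to 6.10 (-0.76, adjusted p = 4.4e-15), and RAB33B, 189159 bases away, from 3.36 to 4.84 (1.49, adjusted p = 5.5e-14). GSTM1 went from 4.06 to 0.04. AMPD2, 55763 bases away, went from 6.16 to 6.56 (0.40, adjusted p = 3.1e-09), GNAI3, 87619 bases away, from 7.46 to 7.89 (0.42, adjusted p = 6e-11), and AMIGO1, 178076 bases away, from 3.15 to 2.78 (-0.38, adjusted p = 0.00011).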
